A study of Mus musculus with 10 samples.

Results

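The genes described here are the FOXO transcription factors of the mouse kidney, the deacetylase Sirt1 and a set of genes that FOXO factors are known to induce. They were chosen by symbol from the deposited count table, as Foxo1, Foxo3, Foxo4, Sirt1, Txnip, Bcl6, Klf15, Ccng2, Gadd45a and Fbxo32, and make up 10 of the 43629 genes listed. Of the 10 genes, 9 were among the 10055 genes with enough reads to be tested, and Fbxo32 was not. The comparison asks whether the factors or their targets were at another level in kidneys of mice given rilmenidine, an antihypertensive drug that binds imidazoline receptors.

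All animals were males of the UM-HET3 stock, a genetically heterogeneous cross, and the labels name no transgene or deletion in either group. The control group of 6 kidneys came from mice on the plain diet (Purina 5LG6), and the rilmenidine group of 4 kidneys from mice whose same diet held the drug at 10 ppm from 3 months of age for 1 month. Kidneys of both groups were from mice 4 months old. Each kidney gave 1 bulk library of the 3′ ends of polyadenylated transcripts.

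FOXO factors are forkhead proteins that bind DNA when insulin and growth factor signalling is low. Active AKT and SGK kinases phosphorylate them, 14-3-3 proteins then hold them in the cytoplasm, and their targets fall silent. Sirt1 removes acetyl groups from FOXO proteins and shifts their choice of targets towards arrest and stress defence. Because this control acts on the proteins, the libraries, which count transcripts, bear on the amount of FOXO mRNA and on the target mRNAs but not on where the FOXO proteins were. In a bulk library, fewer cells of a type and less RNA per cell cannot be told apart.

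The control libraries held between 863605 and 2559118 counts and the rilmenidine libraries between 1813465 and 3232063. Control replicate 6 was the only control library with more counts than the smallest rilmenidine library. Depth thus went in part with the group, which also limits fits with library size as a covariate. Summed markers of the proximal tubule, the main cell of the renal cortex, were between 39414 and 53532 normalized CPM, the counts scaled to a common library size, in control and between 43535 and 66614 in rilmenidine kidneys. Of the 5 markers of each tissue around the kidney, Lep of fat, Acta1 and Ckm of skeletal muscle and Cyp11b2 of the adrenal gland were at 0 in every library. The summed fat markers were between 21.5 and 47.1 CPM in control and between 11.6 and 47.2 in rilmenidine kidneys, and the muscle and adrenal sums reached at most 7.602 and 8.69. Blood markers summed to between 980 and 8803 CPM in control and between 2874 and 4115 in rilmenidine kidneys. Immune markers summed to 39.0 to 182 and 96.5 to 113. Liver markers summed to 402 to 895 and 411 to 783, with Apoa1 at no more than 5 counts in any library. The 4 principal cell markers summed to between 113 and 157 CPM in control and between 168 and 194 in rilmenidine kidneys, without overlap. Those of the thick ascending limb had medians of 1337 and 2174 CPM, with 2 of 3 tested markers higher at an unadjusted p under 0.05, and those of the distal convoluted tubule 249 and 204, with 2 of 3 lower. Malat1, an abundant RNA kept in the nucleus, set 4 control kidneys apart, with 1182 to 2100 CPM. The other 2 control kidneys, replicates 6 and 2, were at 284 and 398, and the rilmenidine kidneys at 306 to 394. Olfactory and vomeronasal receptor genes summed to between 8.97 and 356 CPM in control libraries. In rilmenidine libraries they ran from 4.55 to 456, highest in replicate 2, which also had the most genes detected, 22848. What this sum stands for was not tested. The part of the tubule segments in the results was not tested, and fits with Malat1 as a covariate are given beside many of the genes below.

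Of the 10 genes, 8 had an entry in the RefSeq promoter table (GRCm38.p6), which gives 250 bases before and 50 after a transcription start. Foxo4 and Fbxo32 had none. Both strands of these windows were searched for the FOXO element GTAAACA, the insulin response element CAAAACA and the E-box CACGTG. Only these exact letters were searched, so variants of a motif were not counted. No motif overlapped another. The 3 motifs were held by 3.65%, 6.28% and 7.15% of all 32851 promoters of this length. The FOXO element was found in the window of Txnip, beginning 121 bases before the start, and the insulin response element in that of Ccng2, beginning 16 bases before the start. The E-box was found 3 times for Klf15, 2 times for Sirt1 and once for Bcl6. The starts meant here are those of RefSeq. For Ccng2 and Sirt1 the gene coordinates given below, from GENCODE, begin farther upstream. The matches of these genes, at chr5:93267557-93267563 for Ccng2, therefore lie inside the gene by those coordinates. These are matches of letters, and no binding was measured.

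Shown are the upstream parts for Txnip, for Bcl6 and Gadd45a, the targets that varied most between kidneys, and the 30 bases around the match of Ccng2. Each runs 5′ to 3′ along the gene, with motif matches in capitals. The stretches lie at chr3:96557707-96557956 on the plus strand, chr16:23988853-23989102 on the minus strand, chr6:67037458-67037657 on the minus strand and chr5:93267546-93267575 on the plus strand. That of Bcl6 belongs to the farther upstream of its 2 starts, and that of Gadd45a holds none of the 3 motifs.
Txnip: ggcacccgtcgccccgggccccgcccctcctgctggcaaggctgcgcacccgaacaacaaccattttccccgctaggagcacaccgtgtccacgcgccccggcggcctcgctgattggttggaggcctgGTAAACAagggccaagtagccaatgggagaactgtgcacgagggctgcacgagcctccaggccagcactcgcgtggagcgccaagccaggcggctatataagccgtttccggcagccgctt
Bcl6: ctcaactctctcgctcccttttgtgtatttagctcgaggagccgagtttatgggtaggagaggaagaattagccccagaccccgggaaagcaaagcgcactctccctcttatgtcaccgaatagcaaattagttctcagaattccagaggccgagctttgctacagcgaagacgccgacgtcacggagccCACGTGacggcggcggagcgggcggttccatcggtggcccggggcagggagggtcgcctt
Gadd45a: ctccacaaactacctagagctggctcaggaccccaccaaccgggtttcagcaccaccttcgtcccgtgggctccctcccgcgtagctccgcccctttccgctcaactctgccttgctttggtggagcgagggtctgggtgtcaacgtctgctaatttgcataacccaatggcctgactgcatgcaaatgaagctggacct
Ccng2: cgtcgcagactCAAAACAaaaacaaggggt

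No FOXO factor, target or Sirt1 passed the test. With edgeR's quasi-likelihood test and Benjamini-Hochberg adjustment over 10055 genes, 0 of the 9 genes had an adjusted p under 0.05, where 0.0% of all genes did. DESeq2 and edgeR's likelihood ratio test also called 0 of the 9. At an unadjusted p under 0.05 the count was also 0 of 9, where 10.6% of all genes passed (4.43% higher and 6.13% lower with rilmenidine). The normalized CPM of the groups overlapped for all 9, while they did not overlap for 1.67% of all genes. The fitted log2 fold changes of rilmenidine against control were above 0 for 4 genes and below 0 for 5, and each of the 9 intervals at 95% held 0. The intervals of 7 of the 9 stayed within 1 log2 unit of 0, and those of Bcl6 and Gadd45a reached beyond it.

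**Figure D1:**
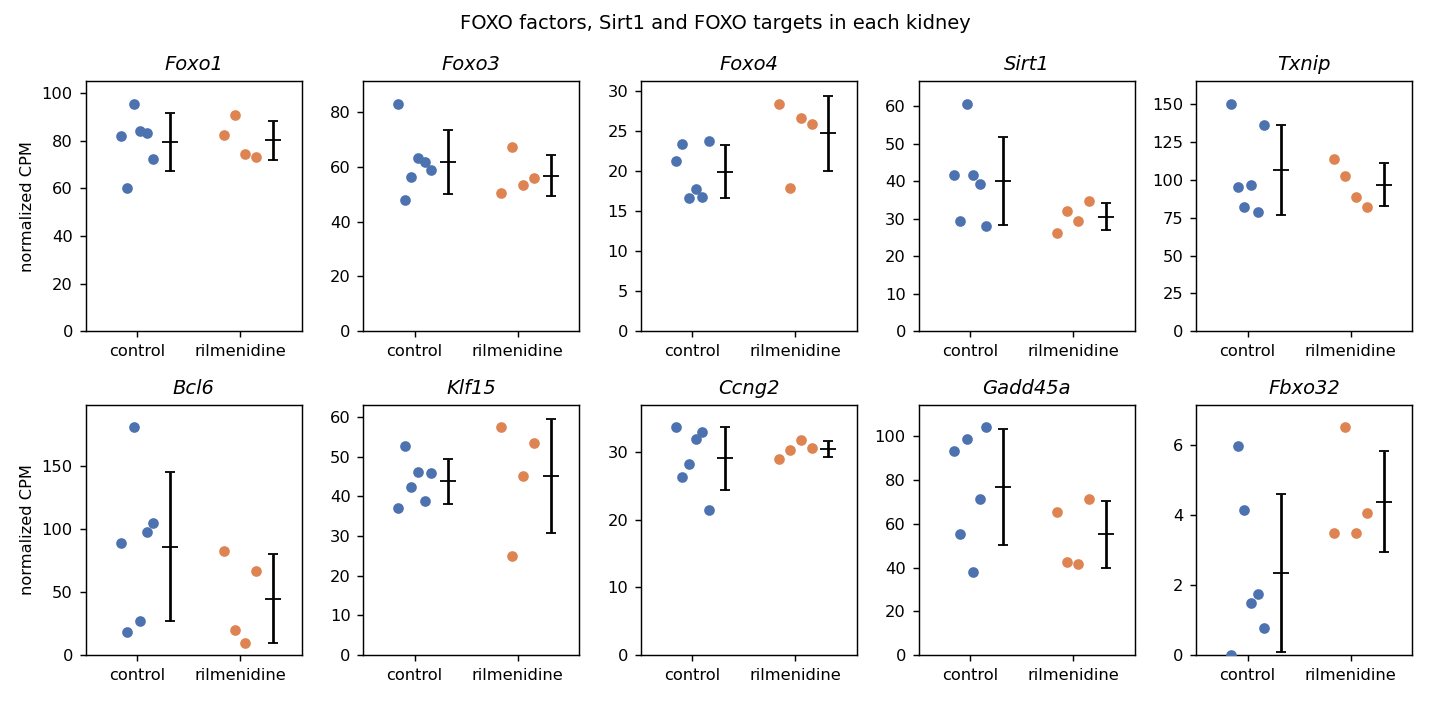
Normalized CPM (vertical axes, from 0) of the 10 genes in each kidney, with 6 control kidneys in blue and 4 rilmenidine kidneys in orange, in order of replicate number; black bars give the mean ± SD of each group. The groups overlap in every panel, and Bcl6 shows the widest spread within both groups.

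Foxo1, the factor best known for driving gluconeogenic genes (ENSMUSG00000044167, chr3:52268336-52353221, GRCm38), was at 82.3, 90.7, 74.5 and 73.1 CPM in the 4 rilmenidine kidneys, against a lowest, median and highest control value of 59.9, 82.6 and 95.4. The rilmenidine values all lay inside the control range. Control kidneys averaged 79.4 ± 12.1 CPM (SD, n = 6) and treated kidneys 80.2 ± 8.12 CPM (SD, n = 4). Rilmenidine against control gave a log2 fold change of 0.015 (SE 0.14, interval -0.29 to 0.32, adjusted p = 0.983, edgeR), so that the interval on the linear scale ran from 0.820-fold to 1.25-fold. Variation between kidneys of a group was small, as the within-group SD of Foxo1 was higher than that of only 15.6% of the genes tested.

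Foxo3, the family member linked to longevity and to atrophy programmes (ENSMUSG00000048756, chr10:42181841-42276755), was at 50.5, 67.3, 53.5 and 55.9 CPM with rilmenidine. The control kidneys ran from 47.9 through a median of 60.4 to 83.1, so here too the rilmenidine values lay within the control range. This gave Foxo3 a log2 fold change of -0.11 (SE 0.16, interval -0.44 to 0.22, adjusted p = 0.855, edgeR). The highest control value was that of replicate 1, the kidney with the fewest counts, and without it the log2 fold change was -0.02.

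Foxo4, the X-linked factor (ENSMUSG00000042903, chrX:101254528-101260873), was measured from only 19 to 83 reads per library. It stood at 28.4, 17.9, 26.6 and 25.9 CPM in rilmenidine kidneys and at a lowest, median and highest of 16.6, 19.6 and 23.8 in control kidneys. Thus 3 of the 4 rilmenidine kidneys were above every control kidney and the remaining one, replicate 2, was below the control median. Foxo4 had a log2 fold change of 0.30 (SE 0.19, interval -0.11 to 0.71, adjusted p = 0.609, edgeR). Without rilmenidine replicate 2 it was 0.42, and the lowest adjusted p on leaving out any single kidney was 0.398.

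Since a ratio within a library does not depend on its scaling, the 3 log2 ratios among the factors were compared by two-sided exact permutation over all 210 splits of the kidneys, the smallest p of which is 0.00476. Foxo1 to Foxo3 was 0.36 ± 0.25 (SD, n = 6) in control and 0.49 ± 0.14 (SD, n = 4) in rilmenidine kidneys (exact p = 0.333, adjusted 0.357). Foxo1 to Foxo4 was 1.94 ± 0.43 in control and 1.67 ± 0.40 in rilmenidine kidneys (exact p = 0.357, adjusted 0.357). Foxo3 to Foxo4 was 1.58 ± 0.36 in control and 1.18 ± 0.46 in rilmenidine kidneys (exact p = 0.148, adjusted 0.357). The balance of the factors was therefore not shown to differ between the groups.

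Sirt1, the NAD-dependent deacetylase of FOXO proteins (ENSMUSG00000020063, chr10:63319005-63381704), was at 26.1, 32.04, 29.4 and 34.7 CPM in rilmenidine kidneys and at a lowest, median and highest of 28.1, 40.4 and 60.6 in control kidneys. All rilmenidine kidneys were below the control median, and 4 control kidneys lay above every one of them. The log2 fold change was -0.36 (SE 0.20, interval -0.79 to 0.07, unadjusted p = 0.0923, adjusted p = 0.549, edgeR). Those 4 control kidneys, at 39.3 to 60.6 CPM of Sirt1, were the 4 with high Malat1, and the other 2 control kidneys were at 28.1 and 29.4. With log2 Malat1 as a covariate the log2 fold change of Sirt1 was 0.0062 (SE 0.22), and over the 6 kidneys with Malat1 under 1000 CPM it was 0.10 (SE 0.20).

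Foxo1, Foxo4 and Ccng2 also did not overlap between the control kidneys of high and of low Malat1. With 4 kidneys against 2 such separation arises easily by chance, for Sirt1 as well, and its share over all genes was not counted. Foxo1 was at 81.9 to 95.4 CPM in the 4 control kidneys with high Malat1 and at 59.9 and 72.1 in the other 2. Its log2 fold change was 0.21 (SE 0.16) with the covariate and 0.27 (SE 0.17) over the 6 kidneys of low Malat1. Foxo4 was at 16.6 to 21.3 CPM in the 4 and at 23.4 and 23.8 in the other 2, and its log2 fold change was 0.09 (SE 0.22) with the covariate. Ccng2 was at 28.2 to 33.7 CPM in the 4 and at 21.4 and 26.4 in the other 2. Its log2 fold change, 0.09 without the covariate, was 0.36 (SE 0.18, unadjusted p = 0.064, edgeR) with it. Klf15 was at 37.0 to 46.1 CPM in the 4 and at 46.0 and 52.7 in the other 2, overlapping, and its log2 fold change was -0.09 (SE 0.24) with the covariate. Malat1 itself was nearly even between groups within the 6 kidneys of low level, at a log2 fold change of 0.03.

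**Figure D2:**
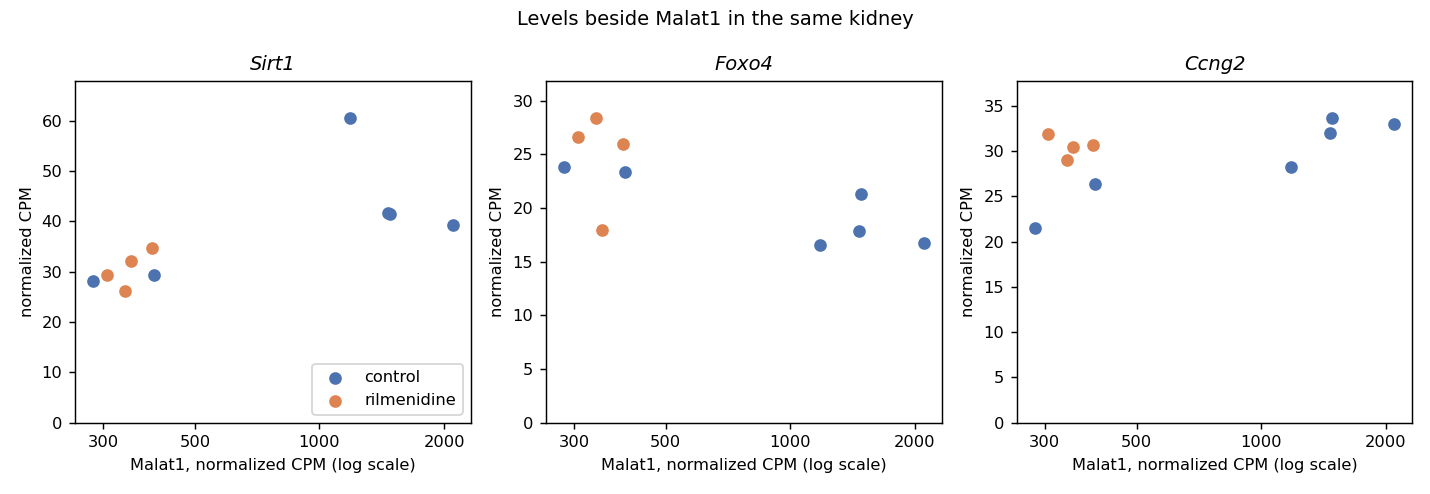
Normalized CPM of Sirt1, Foxo4 and Ccng2 (vertical axes, from 0) against that of Malat1 in the same kidney (horizontal axes, log scale), with control kidneys in blue and rilmenidine kidneys in orange. The 4 control kidneys above 1000 CPM of Malat1 have the 4 highest values of Sirt1, while the 2 control kidneys below it lie among the rilmenidine kidneys.

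Among the targets, Txnip encodes an arrestin-like protein that inhibits thioredoxin and glucose uptake (ENSMUSG00000038393, chr3:96557957-96561883), and its promoter window held the FOXO element. It was at 113.7, 102.6, 88.9 and 81.8 CPM in rilmenidine kidneys, against a lowest, median and highest of 78.7, 95.9 and 150.4 in control kidneys. All rilmenidine values lay within the control range, and control replicates 1 and 6 were the highest kidneys, at 150.4 and 136.5 CPM. Txnip had a log2 fold change of -0.14 (SE 0.18, interval -0.53 to 0.25, adjusted p = 0.844, edgeR). It was -0.03 without control replicate 1, -0.23 without rilmenidine replicate 1 and -0.30 with the Malat1 covariate.

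Klf15, a Kruppel-like factor of fasting and glucocorticoid responses (ENSMUSG00000030087, chr6:90462576-90475238), was at 57.4, 24.98, 45.1 and 53.4 CPM in rilmenidine kidneys. The control kidneys ran from 37.0 through 44.2 to 52.7. The rilmenidine group thus held both the highest and the lowest value, the lowest again in replicate 2. The log2 fold change was 0.04 (SE 0.20, interval -0.37 to 0.46, adjusted p = 0.967, edgeR), and its sign changed under several settings of the fit. It was 0.23 without rilmenidine replicate 2, the library with the highest sum of olfactory and vomeronasal receptor genes.

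Ccng2, a cyclin that slows the cell cycle (ENSMUSG00000029385, chr5:93267257-93276231), was the steadiest of the targets, at 28.99, 30.4, 31.8 and 30.6 CPM in rilmenidine kidneys. Control kidneys ran from 21.4 through 30.1 to 33.7, with 3 above and 3 below all rilmenidine kidneys. The coefficient of variation was 3.82% in rilmenidine kidneys, below the 12.2% that counting error alone would give at these read numbers, and 16.2% in control kidneys. Its log2 fold change was 0.09 (SE 0.17, interval -0.26 to 0.44, adjusted p = 0.914, edgeR).

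Bcl6, a transcriptional repressor that FOXO factors and fasting induce (ENSMUSG00000022508, chr16:23965052-23988852), differed most between kidneys. It was at 88.7, 17.98, 180.9, 26.7, 97.8 and 105.3 CPM in the 6 control kidneys and at 82.3, 19.5, 9.8 and 66.5 in the 4 rilmenidine kidneys. The highest control value was 10.1 times the lowest, and the highest rilmenidine value 8.41 times the lowest. The coefficients of variation of 68.9% in control and 79.3% in rilmenidine kidneys compare with 12.1% and 13.7% from counting error alone. The within-group SD of Bcl6 was 1.31 on the log2 scale, higher than that of 99.6% of the genes tested, for which the median was 0.327.

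Against that spread the group means of Bcl6, 86.2 ± 59.4 (SD, n = 6) and 44.6 ± 35.3 (SD, n = 4), gave a log2 fold change of -0.96 (SE 0.56, interval -2.15 to 0.23, unadjusted p = 0.108, adjusted p = 0.578, edgeR). The value was -1.39 without rilmenidine replicate 1 and -0.61 without rilmenidine replicate 3. It passed the threshold in 1 fit, in which every gene with at least 1 read in any library was kept, at an adjusted p of 3.36e-05. In that fit the standard error was 0.18, against 0.56 here, and the total degrees of freedom, residual and prior together, were 220520, against 16.5 here, so that the gene's own spread between kidneys scarcely entered.

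Gadd45a, a growth arrest and DNA damage protein (ENSMUSG00000036390, chr6:67035096-67037457), was at 65.5, 42.4, 41.6 and 71.2 CPM in rilmenidine kidneys. The control kidneys ran from 37.9 through 82.2 to 104.1, with 3 above and 1 below all rilmenidine kidneys. Gadd45a had a log2 fold change of -0.47 (SE 0.25, interval -1.001 to 0.06, unadjusted p = 0.0773, adjusted p = 0.527, edgeR), the smallest p of the 9 genes. The transcript E230016M11Rik overlaps Gadd45a on the other strand and held 70 counts in all libraries together, so that the share of reads between them is uncertain if the counting did not use strand.

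The same kidneys were low in Bcl6 and in Gadd45a. The 4 kidneys with the lowest Bcl6, 2 control (replicates 2 and 4) and 2 rilmenidine (replicates 2 and 3), had 9.8 to 26.7 CPM of Bcl6 and 37.9 to 55.1 CPM of Gadd45a. The other 6, 4 control and 2 rilmenidine, had 66.5 to 180.9 CPM of Bcl6 and 65.5 to 104.1 CPM of Gadd45a. Since the kidneys fell into separate sets, no correlation over all of them is given. Within the 6 kidneys Pearson's r was 0.631 (exact permutation p = 0.160, 720 orders) and Spearman's rho 0.657 (exact permutation p = 0.175), with r 0.617 without the 2 kidneys farthest from the median of Bcl6. The pair was picked after its values were seen, and the sets of low and high kidneys each held both groups.

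**Figure D3:**
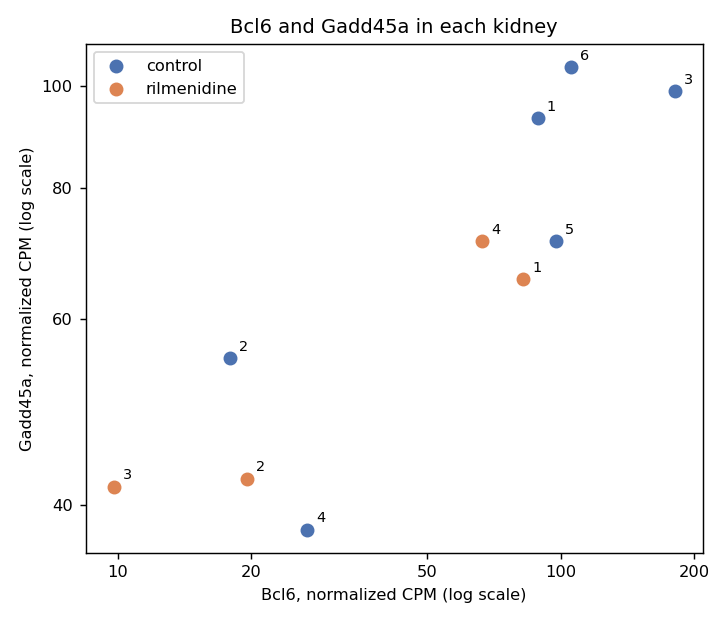
Normalized CPM of Gadd45a (vertical, log scale) against that of Bcl6 (horizontal, log scale) in each kidney, with control in blue and rilmenidine in orange and replicate numbers beside the points. The 4 kidneys with 9.8 to 26.7 CPM of Bcl6 lie apart from the other 6, and both groups occur in each set.

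Fbxo32, the muscle ubiquitin ligase atrogin-1 (ENSMUSG00000022358, chr15:58175879-58214932), was at the limit of detection. The libraries held 0, 10, 5, 2, 3 and 2 reads in control and 6, 12, 10 and 13 in rilmenidine kidneys, or at most 5.99 and 6.52 CPM. The control CPM ran from 0 through 1.61 to 5.99, and 4 of the 6 control kidneys were below all rilmenidine kidneys. It was fitted only where every gene with at least 1 read was kept, with a log2 fold change of 0.85 (SE 0.63, adjusted p = 0.638, edgeR), and as for Bcl6 its own spread scarcely entered that fit.

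Levels of each factor and of Sirt1 were set against each of the 5 targets tested over the 10 kidneys, in 20 pairs, of which 13 had a positive Pearson r. No pair passed after adjustment, and 2 had an unadjusted permutation p under 0.05. Foxo3 and Klf15 ran in opposite directions, at r = -0.672 (permutation p = 0.0422, adjusted 0.422, n = 10) and rho = -0.746 (permutation p = 0.0178, adjusted 0.355). The r was -0.799 without the 2 kidneys farthest from the median of Foxo3 and -0.822 within the control kidneys. Foxo4 and Klf15 ran together, at r = 0.627 (permutation p = 0.0392, adjusted 0.422, n = 10) and rho = 0.600 (permutation p = 0.0729, adjusted 0.614), with 0.708 without 2 kidneys and 0.454 within control kidneys. Over the 10 kidneys r with log2 Malat1 was 0.529 for Foxo3, -0.730 for Foxo4 and -0.209 for Klf15. Within control kidneys these were 0.548, -0.823 and -0.726. The part of Malat1 in these pairs was not tested.

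**Figure D4:**
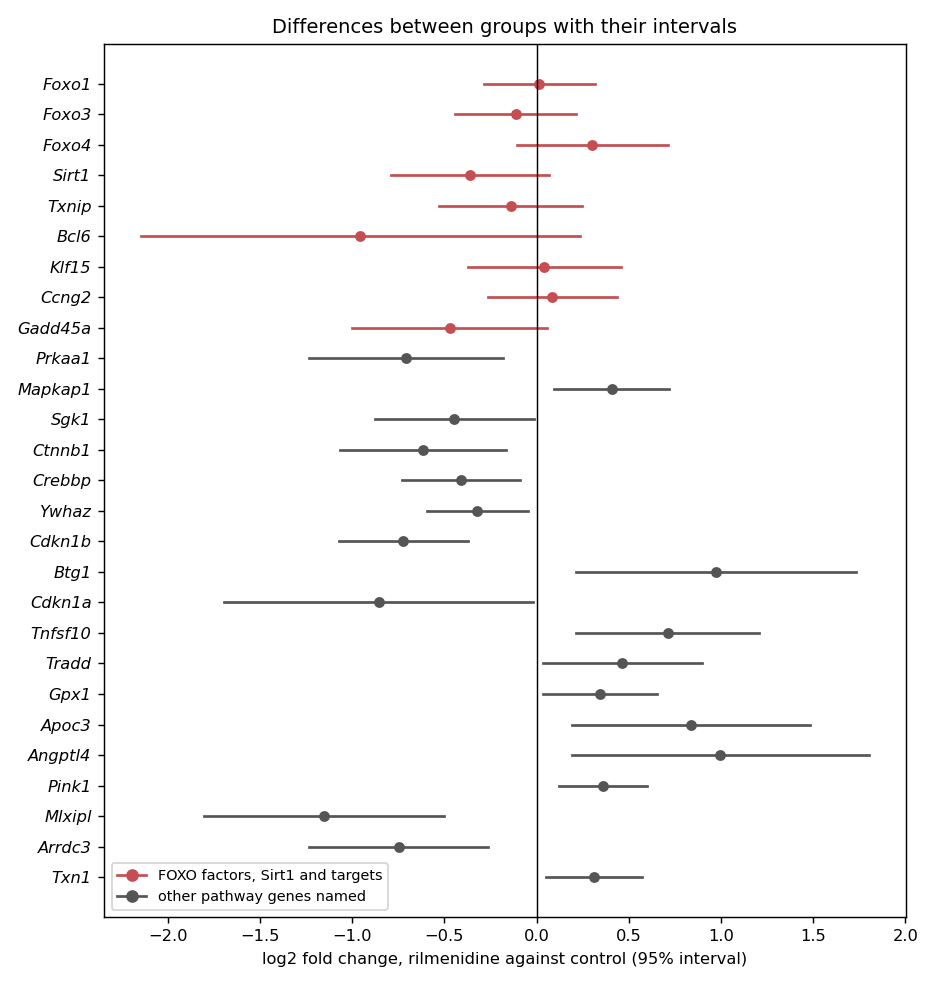
Log2 fold change of rilmenidine against control kidneys (horizontal axis) with its 95% interval from edgeR, for the 9 FOXO genes tested in red and for the other pathway genes named in the text in grey. Each of the 9 red intervals holds 0, and that of Bcl6, from -2.15 to 0.23, is the widest shown.

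The rest of the FOXO pathway was described by lists of its regulators and further targets, 139 genes of the table besides those above, of which 118 had enough reads. None had an adjusted p under 0.05 in edgeR's quasi-likelihood test, and 18 (15.3%) had an unadjusted p under 0.05, 9 higher and 9 lower with rilmenidine, where 10.6% of all genes did. In the fit with log2 Malat1 as a covariate 5 of the 118 did, where 305 of all 10055 genes did. With log2 library size 10 of the 118 did, where 432 of all genes did, so the count fell over all genes too. The groups did not overlap for several of those named below, where 0.796% of all genes were higher and 0.875% lower in this way. The named genes were chosen by an unadjusted p under 0.05, which favours groups that do not overlap. Their lack of overlap therefore adds nothing to that p. None of the genes that follow passed the adjusted quasi-likelihood test over all 10 kidneys. Cdkn1b and Mlxipl passed in some other fits, as given below. The counts and medians of a list include any of the 10 genes above that belong to it.

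Upstream of FOXO, 29 of 30 kinases and phosphatases were tested, with 1 higher and 2 lower at an unadjusted p under 0.05 and a median log2 fold change of -0.16, against 0.0021 over all genes. Prkaa1, a catalytic subunit of AMP-activated kinase, which phosphorylates FOXO3, was at 6.65 to 11.9 CPM in rilmenidine and 12.4 to 18.6 in control kidneys, without overlap (log2 fold change -0.71, SE 0.25, adjusted p = 0.326, edgeR). Sgk1, an aldosterone- and glucocorticoid-induced kinase that inactivates FOXO3, had a log2 fold change of -0.44 (adjusted p = 0.456, edgeR) and, over the 6 kidneys with low Malat1, of -0.72 (adjusted p = 0.999, edgeR). Mapkap1, a subunit of the mTORC2 complex that activates AKT and SGK, had 0.41, and 0.16 with the Malat1 covariate. The median of the list was -0.02 with that covariate.

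Of 26 acetylases, deacetylases and binding partners, 21 were tested, with 0 higher and 3 lower and a median of -0.12. Ctnnb1, the beta-catenin that binds FOXO, was at 23.8 to 35.3 CPM in rilmenidine and 35.7 to 83.1 in control kidneys (log2 fold change -0.62, SE 0.21, adjusted p = 0.321, edgeR). Crebbp, an acetylase of FOXO, was at 41.6 to 51.6 and 52.8 to 79.8 CPM (log2 fold change -0.41, SE 0.15, adjusted p = 0.339, edgeR). Neither overlapped between groups. Ywhaz, the zeta form of 14-3-3, had a log2 fold change of -0.32. With the Malat1 covariate the values of the 3 genes were -0.44, -0.22 and -0.13.

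Cell cycle and DNA damage targets, 12 of 17 tested, had 1 gene higher, 2 lower and a median of -0.11. Cdkn1b, the inhibitor p27 and a classical FOXO target, had the smallest p of the whole pathway. It was at 49.97 to 86.3 CPM in rilmenidine and 78.5 to 117.9 in control kidneys, overlapping, with a log2 fold change of -0.72 (SE 0.17, unadjusted p = 0.000437, adjusted p = 0.209, edgeR). Its adjusted p was 0.0204 in DESeq2 and 0.0301 in edgeR's likelihood ratio test. In the quasi-likelihood test it was 0.0430 without control replicate 2, a control kidney with low Malat1. The log2 fold change was -0.55 with the Malat1 covariate. Cdkn1a, the inhibitor p21, had a log2 fold change of -0.86, and of -0.42 without control replicate 5, its highest kidney. It was -0.51 with the Malat1 covariate. With the replicate number as a block, a fit that also leaves out control replicates 5 and 6, it was -0.33. Btg1, an antiproliferative factor measured from 3 to 24 reads, had 0.98.

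Apoptosis and transcription targets, 12 of 14 tested, had 2 genes higher and a median of 0.08. Tnfsf10, the death ligand TRAIL, had a log2 fold change of 0.71 (SE 0.23, adjusted p = 0.303, edgeR), and 0.98 with the Malat1 covariate. It was 0.50 with the replicate number as a block, a fit without control replicates 5 and 6. Among the 7 libraries whose olfactory and vomeronasal receptor genes summed to 10 CPM or more it was 0.25. Tradd, an adaptor of death receptors, had 0.47 without overlap of the groups, and 0.24 with the covariate. Of 12 stress defence targets, all tested, Gpx1, a glutathione peroxidase, was the only one with an unadjusted p under 0.05. It was at 3073 to 3259 CPM in rilmenidine and 1962 to 3034 in control kidneys (log2 fold change 0.35, SE 0.15, adjusted p = 0.415, edgeR), where the 2 control kidneys with low Malat1 were the highest control kidneys at 2869 and 3034, and the covariate gave 0.10. The median of this list was 0.14.

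Metabolic targets, 13 of 15 tested, had 2 genes higher and a median of 0.12. These were Angptl4, an inhibitor of lipoprotein lipase induced by fasting (log2 fold change 1.00, SE 0.38, adjusted p = 0.360, edgeR), and Apoc3, an apolipoprotein repressed by insulin (0.84, SE 0.30, adjusted p = 0.337, edgeR). With the Malat1 covariate they were at 0.75 and 0.56. Of 16 genes of protein breakdown and autophagy 15 were tested, with a median of 0.03. Pink1, a kinase of mitochondrial quality control, was at 251 to 315 CPM in rilmenidine and 200 to 236 in control kidneys (log2 fold change 0.36, SE 0.11, adjusted p = 0.285, edgeR). Its groups did not overlap, and the value was 0.39 with the Malat1 covariate and between 0.31 and 0.42 over all 20 alternative fits.

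Glucocorticoid-induced genes, 7 of 10 tested, had 0 higher and 1 lower, which was Sgk1, and a median of -0.05. The relatives and partners of Txnip, 8 of 11 tested, had 1 higher and 2 lower and a median of -0.06. Mlxipl, the glucose-sensing factor ChREBP that acts on Txnip, was at 26.6 to 42.2 CPM in rilmenidine and 31.97 to 127 in control kidneys (log2 fold change -1.15, SE 0.31, adjusted p = 0.232, edgeR). The 4 control kidneys with high Malat1 were at 75.2 to 127 and the other 2 at 31.97 and 46.1, and with the Malat1 covariate the value was -0.13 (SE 0.19). The adjusted p of Mlxipl was 0.0364 in edgeR without control replicate 6, a control kidney with low Malat1, and 0.0355 in DESeq2. Arrdc3, an arrestin close to Txnip, had -0.75 and, with the covariate, -0.29. Txn1, the thioredoxin that Txnip binds, had 0.31 and, with the covariate, 0.16.

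**Figure D5:**
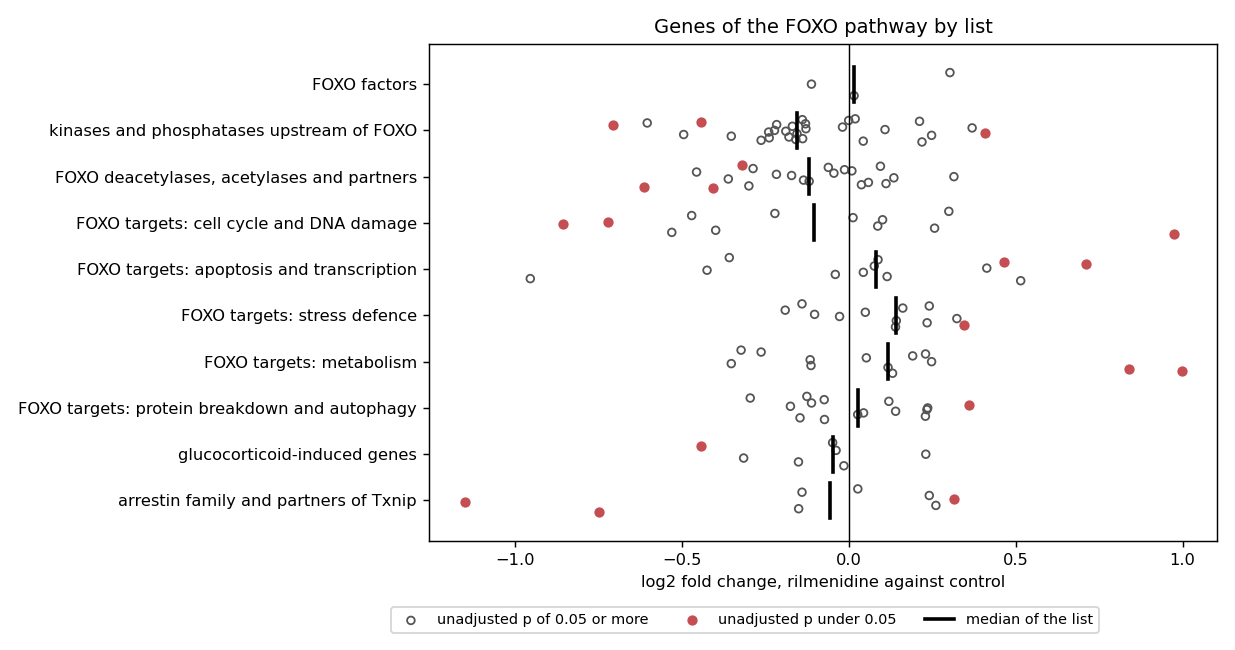
Log2 fold change of rilmenidine against control kidneys (horizontal axis) for every tested gene of each FOXO pathway list (one line per list), with genes of unadjusted p under 0.05 filled in red and a black bar at each median. The medians run from -0.16 for the upstream kinases and phosphatases to 0.14 for the stress defence targets, against 0.0021 over all genes tested.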

How the data were processed

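Bulk RNA of 10 kidneys, 6 control and 4 rilmenidine, was grouped by the labels, which number the samples without naming animals; p-values therefore measure the spread between these samples. The supplementary methods describe more control kidneys than the 6 used here, and the extraction text of the labels speaks of liver. The authors deposited raw read counts per Ensembl gene, made per the labels and methods with bcl2fastq 1.8.4, Trimmomatic 0.32, STAR 2.5.2b and featureCounts 1.5 on mm10. The annotation release, strand setting and handling of molecular identifiers are not given in the sources used here. If duplicates were kept, counts overstate molecules.

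From these counts, genes with at least 6 reads in 7 of 10 samples were normalized by RLE and tested in edgeR 4.0.16 (R 4.3.3; glmQLFit, glmQLFTest), with Benjamini-Hochberg adjustment over all 10055 genes and a threshold of 0.05. Total counts of 863605 to 3232063 limit low genes. Log2 levels use a prior count of 2. Symbols and coordinates were taken from GENCODE M21 (GRCm38), which named 42462 of 43629 genes. Correlations used 100000 permutations and counting error the square root of the reads. The genes and lists, and the rule naming all listed genes with an unadjusted p under 0.05 (at most 4 per list, by p), were chosen with earlier results of these data known. Alternatives were TMM, other filters, DESeq2 1.42.0, the likelihood ratio test, covariates, a replicate block, subsets of libraries and leaving out each kidney. The replicate block used only replicate numbers found in both groups, which left out control replicates 5 and 6. The fit over kidneys with Malat1 under 1000 CPM was added after seeing the data. The tests were tried on simulated data. No protein sequences were used here.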

Additional observations from a re-analysis of the deposited data

Results flagged for a closer look

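Of 56 groups of values examined, in each of which the gap of the highest or lowest kidney was compared with the range of its group, 2 held a kidney far from the others, where chance gives about 1 in 20. Ctnnb1 was at 83.1 CPM in control replicate 1, against 35.7 to 52.0 in the other control kidneys. Cdkn1a was at 45.7 CPM in control replicate 5, against 8.17 to 20.7 in the other control kidneys.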

How the results depend on the processing

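Depth limits genes of few reads such as Fbxo32 and Btg1. Of 534 gene values under 20 alternatives, 505 kept their direction and side of the threshold, 11 newly passed it and 18, all of FOXO factors, Sirt1 or targets with intervals around 0, changed sign. The count of all genes called was 241 when genes with 1 read in any sample were kept, 60 in DESeq2, 44 in the likelihood ratio test and 0 to 37 on leaving out a kidney (33 without control replicate 2, 37 without control replicate 6, 6 without rilmenidine replicate 1). Among the 9 FOXO genes it was 1 (Bcl6) with the first of these filters, and in the pathway lists 5, 2 and 1 in these 3 settings and 0 to 1 on leaving out a kidney (Cdkn1b without control replicate 2, Mlxipl without control replicate 6). Control replicates 2 and 6 were the control kidneys with low Malat1. Over the 6 kidneys with low Malat1 the count was 0 in each.

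Signs changed with log2 library size as a covariate for Foxo3 (0.062) and Klf15 (-0.11), with log2 Malat1 for Foxo3 (0.051), Sirt1 (0.0062) and Klf15 (-0.092), over the 6 kidneys with low Malat1 for Foxo3 (0.079), Sirt1 (0.098) and Klf15 (-0.11), and among the 7 libraries whose olfactory and vomeronasal receptors summed to 10 CPM or more for Txnip (0.12), Klf15 (-0.086) and Ccng2 (-0.040). On leaving out a kidney Foxo1 ran from -0.056 to 0.074 (-0.013 without control replicate 6 and -0.048 without rilmenidine replicate 2), Klf15 from -0.078 to 0.23 (-0.051 without rilmenidine replicate 4) and Ccng2 from -0.00058 to 0.13. The median log2 fold change of each list took the other sign under at least 1 alternative, except that of acetylases, deacetylases and partners. For stress defence it was -0.025 and for upstream kinases 0.0028 over the 6 kidneys with low Malat1. For metabolic targets it was -0.12 with 10 reads in every sample. That filter left out Angptl4 and Apoc3, the highest of the list, so this median was of fewer genes. The cause was not tested.

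No pairing by replicate number was seen, as deviations of same-numbered kidneys correlated at 0.076, 0.077, -0.077 and -0.0070. Those of kidneys with unlike numbers ran from -0.34 to 0.19. Such correlations cannot tell whether same-numbered samples shared a batch. With the replicate number as a block, which left out control replicates 5 and 6, Klf15 was at -0.030. In that fit 10 of 113 pathway genes had an unadjusted p under 0.05, where 903 of all 9793 genes did. In the main fit over all kidneys it was 18 of 118, where 1061 of all 10055 genes did.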

Other observations

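For each of the 9 FOXO genes tested, the gene of highest Pearson r over the 10 kidneys, group means removed, was sought among all other genes tested. It was Spopl for Foxo1 (0.947), Ak4 for Foxo3 (0.940), Nudt14 for Foxo4 (0.967), Exoc1 for Sirt1 (0.950), Gtf2h4 for Txnip (0.960), Nmnat1 for Bcl6 (0.951), 1810021B22Rik for Klf15 (0.942), Ppwd1 for Ccng2 (0.945) and Lpin1, a lipid phosphatase and coactivator, for Gadd45a (0.942). Each r is the highest of 10055 genes compared over 10 kidneys and carries no test. With group means removed, r of Foxo3 with Klf15 was -0.70 (permutation p = 0.00346, adjusted 0.0692 over the 20 pairs of factor and target). The r of both genes with Malat1 is given with this pair above.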
